A study of Mus musculus with 8 samples.

Results

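Hair cells (HCs) signal to the auditory nerve through ribbon synapses, and the 8 genes described here encode parts of that synapse. They were matched by symbol among the 27998 genes counted in each of 8 libraries of single cells from the mouse organ of Corti, and all 8 were found in every library. Every animal carried Fgfr3iCre+, Atoh1-HA+, Chrna9-GFP+ and Rosa26-CAG-loxP-stop-loxP-tdTomato+, so that tamoxifen switches on Atoh1, the factor that drives HC fate, in the supporting cells (SCs) that express Fgfr3. Tamoxifen at P12-13 preceded collection in Coch + Tmx P26 (n = 3 libraries, postnatal day 26) and Coch + Tmx P33 (n = 2, day 33). No tamoxifen was listed for Coch P12 (n = 2, day 12) and Coch P33 (n = 1, day 33). The question put to the data was how much of the ribbon synapse gene set is present in HCs, in converted HCs (cHCs), in SCs and in neurons.

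A ribbon synapse holds vesicles on an electron-dense ribbon beside voltage-gated calcium channels, so that a graded change in membrane potential gives sustained glutamate release. In the cochlea inner HCs carry most of the afferent ribbons, whereas outer HCs, which amplify sound, carry few. The release machinery differs from that of a neuronal synapse, in that otoferlin takes the place of the synaptotagmins that sense calcium in neurons.

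The 8 genes fall into 4 roles, and their positions are given on GRCm38.p6. Otof (chr5:30367066-30462730) encodes otoferlin, a calcium-binding protein of vesicle fusion and refilling. Slc17a8 (chr10:89574020-89621249) encodes VGLUT3, the transporter that fills vesicles with glutamate. Cacna1d (chr14:30039941-30491156) encodes the pore of the CaV1.3 calcium channel, Cacnb2 (chr2:14603861-14988811) its beta subunit, and Cabp2 (chr19:4081469-4087340) a calcium-binding protein that limits inactivation of this channel. Bsn (chr9:108096022-108190419) encodes bassoon, which anchors the ribbon, Rims2 (chr15:39198286-39684372) a scaffold that ties channels to vesicles, and Ctbp2 (chr7:132986998-133124009) both the ribbon protein RIBEYE and the widely expressed corepressor CtBP2. The libraries count the 3′ end of a transcript, which RIBEYE and CtBP2 share, so the Ctbp2 value is the sum of both.

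Promoter windows from RefSeq, 250 bases before to 50 bases after a transcript start on GRCm38.p6, were found for 6 of the 8 genes (11 windows). They are shown for Slc17a8 and Cabp2 because these genes had the largest differences between HCs and cHCs, and for Cacna1d because it differed least of the genes tested. Each of these 3 genes has 2 windows, and that of its more 5′ start is shown. Capitals mark 3 hexamers, searched on both strands. They are CAGCTG, which reads the same on either strand, then the hexamer CAGATG and last the hexamer CAGGTG. All are forms of the E-box that basic helix-loop-helix factors such as Atoh1 bind.
Slc17a8 (chr10:89621200-89621499, minus strand): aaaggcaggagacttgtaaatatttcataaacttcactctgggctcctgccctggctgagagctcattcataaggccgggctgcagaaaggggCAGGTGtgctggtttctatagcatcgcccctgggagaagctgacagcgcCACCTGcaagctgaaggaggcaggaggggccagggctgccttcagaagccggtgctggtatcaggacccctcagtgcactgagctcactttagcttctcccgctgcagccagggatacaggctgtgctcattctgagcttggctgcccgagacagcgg
Cabp2 (chr19:4082238-4082537, plus strand): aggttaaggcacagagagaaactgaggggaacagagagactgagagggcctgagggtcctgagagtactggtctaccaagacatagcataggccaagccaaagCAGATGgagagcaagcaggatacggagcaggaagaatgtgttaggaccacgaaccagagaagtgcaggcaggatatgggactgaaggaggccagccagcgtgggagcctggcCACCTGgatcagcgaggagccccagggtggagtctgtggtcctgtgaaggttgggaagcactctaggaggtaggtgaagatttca
Cacna1d (chr14:30491107-30491406, minus strand): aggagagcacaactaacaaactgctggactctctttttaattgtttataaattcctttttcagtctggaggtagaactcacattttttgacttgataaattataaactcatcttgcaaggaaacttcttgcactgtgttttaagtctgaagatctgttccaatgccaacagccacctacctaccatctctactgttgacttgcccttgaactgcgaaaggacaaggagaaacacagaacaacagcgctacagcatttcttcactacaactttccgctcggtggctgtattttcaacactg
At least 1 of the 3 hexamers was present in 7 of the 11 windows of the synapse genes and in 44.3% of all 32851 windows. Of the windows not shown, that of Slc17a8 held 1 CAGATG, that of Cacna1d held 1 CAGCTG and that of Cabp2 held none, so the windows of the 3 genes were not set apart by these hexamers. A match is a description of these letters only.

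Cells were grouped without using the synapse genes or Atoh1, and 5982 cells were kept. The classes used were HC-like (62 cells, led by Ocm, Pcp4 and Lmod3), cHC-like (118 cells, led by Ccer2, Grp and Wfdc3, with Chrna9 and Rasd2 among the leading genes), SC-like (129 cells) and neuron-like (96 cells). All 12 HC markers were detected in the HC-like cells and 10 of 11 neuron markers in the neuron-like cells. Detection alone did not separate the classes. All 12 HC markers were also detected in cHC-like and SC-like cells, and 8 to 9 neuron markers in the other 3 classes. HC markers made up 1.97% of the UMIs (unique molecular identifiers, counts of single captured transcripts) of HC-like cells. Their share was 0.808% in cHC-like, 0.051% in SC-like and 0.472% in neuron-like cells. Neuron markers made up 0.0172% of the UMIs of HC-like cells and 0.029% of those of cHC-like cells, against 1.2% in neuron-like cells. SC markers (13 of 13 detected in each of the 3 classes) made up 0.82% of the UMIs of HC-like cells, 0.379% of those of cHC-like and 1.66% of those of SC-like cells. Erythroid markers made up 1.19% in HC-like cells and 0.183 to 0.524% in the other 3 classes. The part of either list in the results was not tested. Median UMIs per cell were 7205 in HC-like, 13107.5 in cHC-like, 14208 in SC-like and 22070.5 in neuron-like cells, and the median mitochondrial share ran from 5.56% in SC-like to 14.5% in HC-like cells. The library labelled Coch + Tmx P26 replicate 3 had Atoh1 at 12.4 CPM (counts per 1000000 UMIs), below the 17.3 to 23.4 CPM of the 3 libraries without tamoxifen, and held no cHC-like cell, whereas the other 4 tamoxifen libraries had 90.9 to 526 CPM and 6 to 43 cHC-like cells. The authors describe 2 biological replicates per group, whereas the labels give 3 libraries of Coch + Tmx P26 and 1 of Coch P33. Whether the label of Coch + Tmx P26 replicate 3 is right was not tested, and it was kept. Values are CPM of the UMIs summed over the cells of a class, intervals are 95% exact Poisson intervals that cover counting error only, and a mean ± SD is over the libraries with at least 5 cells of the class. That library lent 4 cells to the pooled HC-like values. Without them Otof was at 543 CPM in place of 657, Slc17a8 at 438 in place of 492, Cabp2 at 531 in place of 574 and Cacna1d at 181 in place of 164.

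Otof, Slc17a8 and Cabp2 were the most abundant of the 8 genes in HC-like cells, and they were lower in cHC-like cells. Otof was at 485 CPM ± 268 (SD, n = 5) in HC-like cells, 55.9 CPM ± 34.6 (n = 4) in cHC-like cells, 0.753 CPM ± 1.84 (n = 6) in SC-like cells and 0.485 CPM ± 1.19 (n = 6) in neuron-like cells. Cabp2 was at 550 CPM ± 156 (n = 5), 46.4 CPM ± 23.8 (n = 4), 7.21 CPM ± 7.61 (n = 6) and 2.09 CPM ± 2.02 (n = 6) in the same order. Slc17a8 was at 336 CPM ± 287 (n = 5) in HC-like cells and at 1.57 CPM ± 2.12 (n = 4) in cHC-like cells. The lowest HC-like library lay above the highest SC-like and neuron-like library for Otof and Cabp2, but not for Slc17a8, which was at 0 in the HC-like cells of Coch P12 replicate 2. Cabp2 had 16 UMIs in SC-like cells (8.88 CPM, 5.07 to 14.4), of which 8 were in Coch P33 (20.1 CPM), close to the lowest cHC-like library (22.2 CPM). In macrophage-like cells, 562 immune cells that should lack the synapse, 1 Otof, 4 Slc17a8 and 1 Cabp2 UMI were counted in 4193583.

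**Figure D1:**
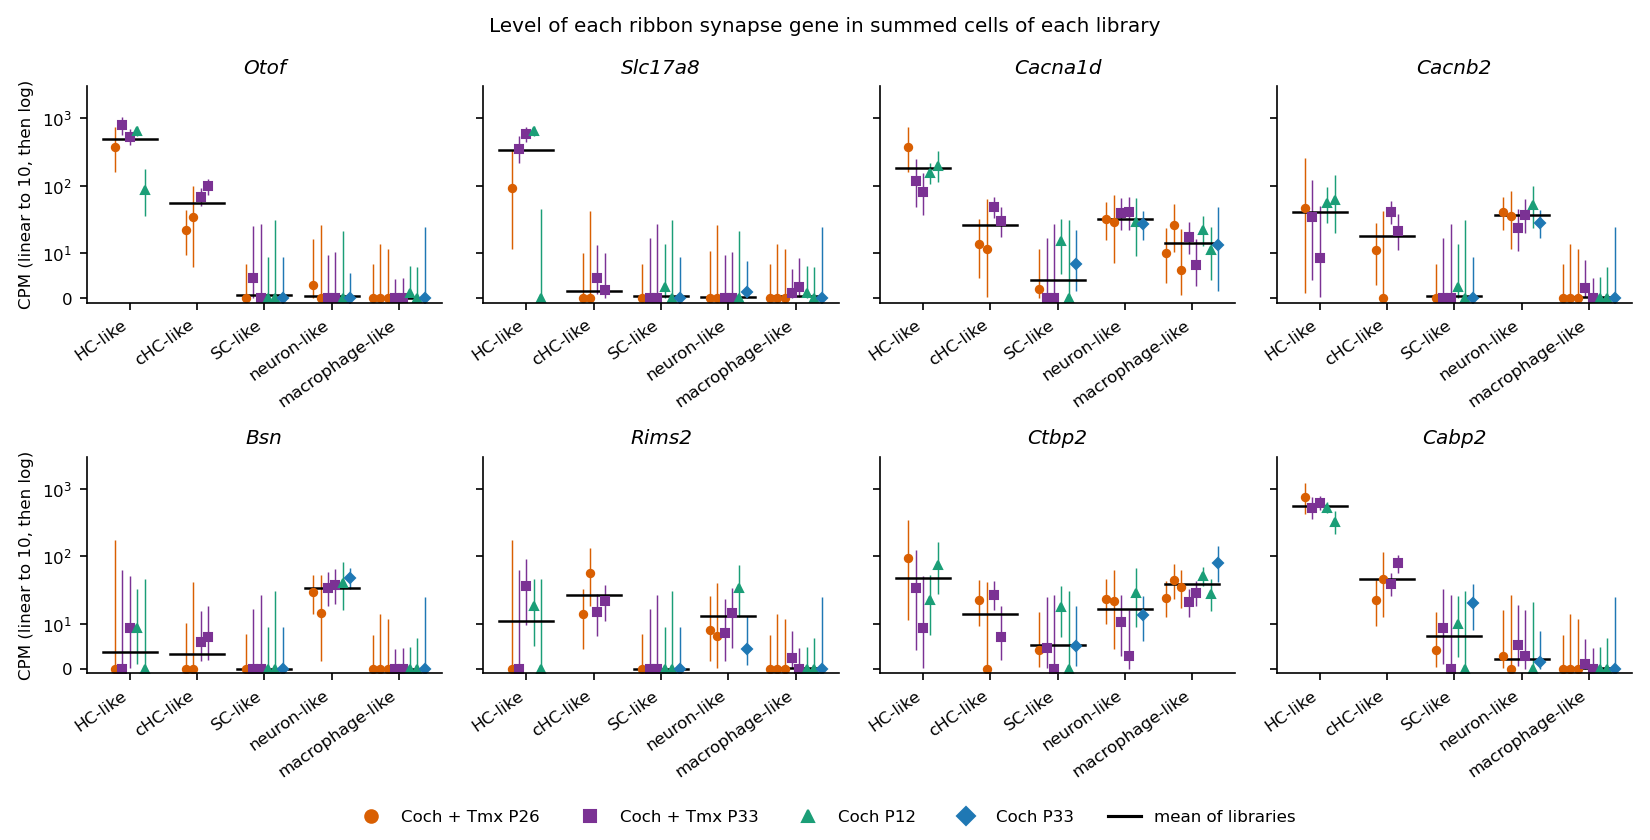
Level of each gene in CPM (vertical axis, linear to 10 and log above) in the summed cells of each library (points; bars are 95% exact Poisson intervals) for 5 classes, with at least 5 cells per point, and the mean of the libraries as a black line. Otof and Cabp2 are highest in HC-like cells and at an intermediate level in cHC-like cells, Bsn is highest in neuron-like cells, and Ctbp2 is at the level of HC-like cells in macrophage-like cells.

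The calcium channel subunits were counted in HCs and neurons and in other cells as well. Cacna1d was at 186 CPM ± 115 (n = 5) in HC-like cells, 25.9 CPM ± 17.0 (n = 4) in cHC-like cells, 4.1 CPM ± 6.08 (n = 6) in SC-like cells and 32.7 CPM ± 5.77 (n = 6) in neuron-like cells. It was also counted in macrophage-like cells, at 14.3 CPM ± 7.05 (n = 8), and the cHC-like libraries (11.4 to 47.9 CPM) overlapped both the neuron-like (27.0 to 40.2 CPM) and the macrophage-like ones (6.29 to 26.1 CPM). Cacna1d had UMIs in 26 of 31 clusters, with 27.9 CPM (23.6 to 32.8) in an unnamed cluster led by Npy, Notum and Nov and 25 CPM (19.1 to 32.2) in one led by Dcn, Hgd and Aldh1a2. Cacnb2 was at 41.4 CPM ± 20.9 in HC-like, 18.3 CPM ± 17.2 in cHC-like and 36.3 CPM ± 9.78 in neuron-like cells, levels that overlapped between libraries, and pooled over libraries 1 UMI was counted in SC-like and 2 in macrophage-like cells. Outside these classes Cacnb2 was highest in an unnamed cluster led by Col15a1, Col26a1 and Igfbp3 (45 UMIs, 16.9 CPM) and in Reissner membrane-like cells (48 UMIs, 16.6 CPM).

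The scaffold genes had few counts in HCs. Bsn had 3 UMIs in 62 HC-like cells (4.97 CPM, interval 1.03 to 14.5) and 8 in 118 cHC-like cells (4.78 CPM, 2.06 to 9.42), against 87 in 96 neuron-like cells (38.2 CPM, 30.6 to 47.2). Rims2 had 9 UMIs in HC-like cells (14.9 CPM, 6.82 to 28.3), 32 in cHC-like cells (19.1 CPM, 13.1 to 27.0), 21 in neuron-like cells (9.23 CPM, 5.71 to 14.1) and 0 in SC-like cells, where 3 counts would be 1.66 CPM. Bsn was therefore highest in neuron-like cells, and the intervals of Rims2 overlapped between HC-like, cHC-like and neuron-like cells. Ctbp2 was at 34.8 CPM (21.6 to 53.2) in HC-like, 17.9 CPM (12.1 to 25.6) in cHC-like and 14.1 CPM (9.62 to 19.9) in neuron-like cells, and at 33.9 CPM (28.5 to 39.9) in macrophage-like cells. The intervals of Ctbp2 thus overlapped between HC-like cells and macrophage-like cells, which have no ribbon.

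HC-like cells were compared with SC-like cells in the 4 libraries with at least 5 cells of each (Coch + Tmx P33 and Coch P12, 2 each). Otof had 46, 59, 142 and 7 UMIs in the HC-like cells of Coch + Tmx P33 replicates 1 and 2 and Coch P12 replicates 1 and 2, and 1 UMI in the SC-like cells of all 4. Cabp2 had 31, 69, 115 and 26 UMIs in the HC-like cells and 6 in all in SC-like cells, and Cacna1d had 7, 9, 34 and 16 against 6 in all. These 3 genes were higher in HC-like cells in 4 of 4 libraries. The other 5 genes had too few counts for the filter. By edgeR's quasi-likelihood test with Benjamini-Hochberg adjustment, 3 of the 3 genes tested were higher (of all 2048 genes tested 25.5% were called, 15.7% higher and 9.86% lower). The log2 fold changes by edgeR were 8.40 for Otof (SE 0.56, adjusted p = 0.000556), 6.34 for Cabp2 (SE 0.50, adjusted p = 0.000556) and 4.54 for Cacna1d (SE 0.66, adjusted p = 0.00328). These 3 genes passed the filter through the HC-like sums alone, which set their direction in advance, though not their call. The count of 3 therefore says little about the set. For the genes not tested, ratios of the pooled counts were 424 for Slc17a8 (interval 75.4 to 16800), 37.4 for Cacnb2 (5.98 to 1550) and 3.27 for Ctbp2 (1.28 to 9.0), and Rims2 was at least 4.98-fold higher. Bsn, with 3 UMIs against 0, was at the limit of detection in both classes. Slc17a8 was higher in 3 of 4 libraries, since Coch P12 replicate 2 had no UMI of it. The authors describe 2 biological replicates per group, but nothing in the labels says that libraries of a group came from separate animals. The p-values measure how the class difference varied between these libraries, and that spread may be biological or technical.

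cHC-like and SC-like cells could be compared in the 2 Coch + Tmx P33 libraries only. In cHC-like cells Otof had 46 and 55 UMIs in replicates 1 and 2, Cabp2 26 and 44, and Cacna1d 32 and 17. In the SC-like cells of the same libraries the counts were 1 and 0, 2 and 0, and 0 and 0. All 3 were higher in cHC-like cells in both libraries, and all 3 of the 3 tested passed edgeR's quasi-likelihood test (of 5793 genes 36.9% were called, 20.3% higher and 16.7% lower). The log2 fold changes by edgeR were 4.70 for Otof (SE 0.83, adjusted p = 1.66e-07) and 3.21 for Cabp2 (SE 0.82, adjusted p = 0.000477). Cacna1d (adjusted p = 0.000114 by edgeR) had no UMI in SC-like cells and was at least 4.77-fold higher. The 3 genes passed the filter through the cHC-like sums alone, which set their direction in advance, so the calls add little to the counts. With 2 pairs of libraries the fit had 1 residual degree of freedom, and DESeq2 called none of the 3 genes: 1 had an unadjusted p under 0.05, the lowest adjusted p was 0.103, and 1 was left without an adjusted p. Of the genes not tested, Cacnb2 (39 UMIs against 0) was at least 3.80-fold and Rims2 (22 against 0) at least 2.14-fold higher, and Ctbp2 had a pooled ratio of 6.42 (interval 1.04 to 265). Slc17a8 (4 UMIs against 0) and Bsn (8 against 0) were below the 8.38 CPM that 3 counts would give in SC-like cells. A difference in Slc17a8 between cHC-like and SC-like cells was therefore not detectable at this depth.

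cHC-like and HC-like cells came from the same 3 libraries (Coch + Tmx P26 replicate 1 and both of Coch + Tmx P33). Otof was at 22.2, 68.9 and 98.5 CPM in cHC-like and at 375, 781 and 532 CPM in HC-like cells of these libraries. Cabp2 was at 22.2, 39.0 and 78.8 CPM against 751, 526 and 622 CPM. Slc17a8 was at 0, 4.49 and 1.79 CPM against 93.9, 356 and 586 CPM. The HC-like value of Slc17a8 in Coch + Tmx P26 replicate 1 was 2 UMIs, where 3 counts would be 141 CPM. Within these libraries every cHC-like value lay below every HC-like one for each of the 3 genes. All 3 were lower in edgeR's quasi-likelihood test (of 3974 genes 8.61% were called, 5.11% higher and 3.5% lower), with log2 fold changes of -6.89 for Slc17a8 (SE 0.65, adjusted p = 0.00255), -3.57 for Cabp2 (SE 0.44, adjusted p = 0.00421) and -3.00 for Otof (SE 0.41, adjusted p = 0.00607). Slc17a8 passed the filter through the HC-like sums alone, which set its direction in advance. Cacna1d was at 13.9, 47.9 and 30.5 CPM against 375, 119 and 81.1 CPM, lower in 3 of 3 libraries, but did not pass (log2 fold change -1.98, SE 0.63, adjusted p = 0.0979 by edgeR). Without Coch + Tmx P33 replicate 1 only 1 of the 3 calls was made, that of Slc17a8, and the adjusted p in edgeR's test was 0.0979 for Otof and 0.0671 for Cabp2.

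For the 4 genes outside that test the intervals included no difference. The pooled ratio of cHC-like to HC-like counts was 1.30 for Cacnb2 (interval 0.471 to 4.97), 0.814 for Rims2 (0.284 to 3.2), 0.723 for Ctbp2 (0.278 to 2.39) and 0.965 for Bsn (0.129 to 42.8). The same ratio was 0.116 for Otof (0.0886 to 0.153), 0.0811 for Cabp2 (0.0600 to 0.109) and 0.00548 for Slc17a8 (0.00146 to 0.0145). Whether these 3 genes differed more between the classes than the other 4 was not tested.

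**Figure D2:**
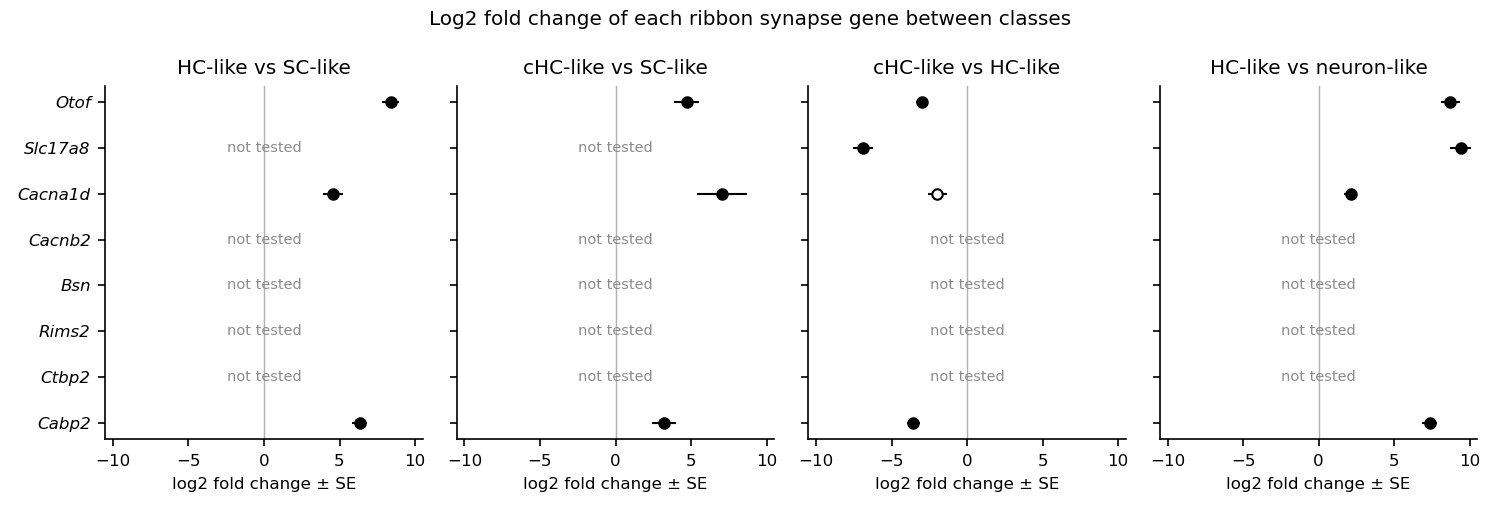
Log2 fold change with its SE (horizontal axis) of each gene in 4 class comparisons by edgeR's quasi-likelihood test, filled where the adjusted p was under 0.05, with genes under the count filter marked as not tested. Slc17a8, Cabp2 and Otof lie left of 0 where cHC-like were compared with HC-like cells, and Cacna1d, left of 0 as well, is open. Values against a class with 0 UMIs (Cacna1d in cHC-like against SC-like, Slc17a8 in HC-like against neuron-like cells) are fitted ones that depend on the prior count.

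Counted per cell, cHC-like cells differed among themselves. Otof was found in 43 of 118 cHC-like cells, with at most 11 UMIs in 1 cell, and Cabp2 in 37 with at most 9. The 5 cells with the most Otof held 30.4% of its 112 UMIs. Slc17a8 was found in 2 cells, of which 1 held 3 of its 4 UMIs. Of the 8 genes a median of 1 had a UMI per cHC-like cell, against 4 in HC-like, 2 in neuron-like and 0 in SC-like cells, and 38 cHC-like cells had none. Otof and Cabp2 were found together in 22 of the cHC-like and 45 of the HC-like cells, and in 0 SC-like and 0 neuron-like cells.

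Because HC-like cells were shallower than the others, detection was also compared after thinning every cell to 1000 UMIs, which left no cell out. At that depth Cabp2 was found in 46.8% of HC-like cells (exact binomial interval 34.0 to 59.9%), 4.24% of cHC-like cells (1.39 to 9.61%) and 0.775% of SC-like cells (0.0196 to 4.24%). Otof was found in 43.5% of HC-like cells (31.0 to 56.7%), 5.08% of cHC-like cells (1.89 to 10.7%) and 0 of 129 SC-like cells, which allows a share of up to 2.33%. Neither gene was found in 562 macrophage-like cells, which allows up to 0.534%. These intervals are over cells pooled across libraries, which are not replicates. Cacna1d was found in 22.6% of HC-like cells (12.9 to 35%), but in 1.69% of cHC-like cells (0.206 to 5.99%) against 2.31% of macrophage-like cells (1.24 to 3.92%). Ctbp2 was found in 2.54% of cHC-like cells (0.527 to 7.25%) and 3.2% of macrophage-like cells (1.91 to 5.01%). For these 2 genes the thinned share in cHC-like cells was thus at or below that in macrophage-like cells, which themselves held both genes at the levels given above, and it shows no cHC-specific detection at this depth. Without thinning, the shares in cHC-like cells were 36.4% for Otof, 31.4% for Cabp2, 26.3% for Cacna1d, 24.6% for Cacnb2, 22.0% for Rims2, 19.5% for Ctbp2, 5.93% for Bsn and 1.69% for Slc17a8.

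HC-like cells were not uniform, and the split ran through the synapse genes. Ocm encodes oncomodulin, a calcium buffer abundant in outer HCs. Dividing the HC-like cells at 0.4% of UMIs from Ocm, a threshold chosen after the cells were seen, gave 38 Ocm-high and 24 Ocm-low cells, with 4 cells between 0.2% and 0.8%. Slc26a5, which encodes prestin, the motor protein of outer HCs, had 145 UMIs in Ocm-high and 0 in Ocm-low cells, while Fgf8, known from inner HCs, had 0 and 24. All values by this split are descriptions, with no test, and the 2 sets of cells came in different shares from the libraries.

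Slc17a8 and Otof were mostly in the Ocm-low cells. Slc17a8 was found in 23 of 24 Ocm-low cells (291 UMIs, 888 CPM, interval 788 to 996) and in 4 of 38 Ocm-high cells (6 UMIs, 21.8 CPM, 8.0 to 47.4). Otof was found in 24 of 24 Ocm-low cells (1030 CPM, 927 to 1150) and in 21 of 38 Ocm-high cells (207 CPM, 157 to 268). Within Coch P12 replicate 1, the library with the most HC-like cells, Slc17a8 was at 1290 CPM in 11 Ocm-low cells and 9.05 CPM in 17 Ocm-high cells, and Otof at 1210 and 99.6 CPM. In Coch + Tmx P33 replicate 1 Slc17a8 was at 473 CPM (285 to 739) in 3 Ocm-low and 107 CPM (12.9 to 385) in 3 Ocm-high cells, and Otof at 847 CPM (586 to 1180) and 640 CPM (330 to 1120), with overlapping intervals for both genes. The Ocm-high level of Otof was 99.6 and 87.3 CPM in Coch P12, and 375 to 762 CPM in the 4 later libraries with at least 2 such cells. These later levels come from 2 to 5 cells each, and all 12 UMIs of Coch + Tmx P33 replicate 1 were in 1 cell. Without the 4 cells of Coch + Tmx P26 replicate 3, Otof was at 886 and 213 CPM and Slc17a8 at 870 and 22.4 CPM in Ocm-low and Ocm-high cells.

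Cacna1d ran the other way. It was at 298 CPM (237 to 370) in Ocm-high cells, in 35 of 38 of them, and at 51.8 CPM (30.2 to 83.0) in Ocm-low cells, in 10 of 24. In Coch P12 replicate 1 the values were 244 and 64.6 CPM. Cabp2 was found in every cell of both sets, at 509 CPM (428 to 600) and 628 CPM (545 to 720). Rims2 had 0 UMIs in Ocm-high and 9 in Ocm-low cells, and Bsn 3 and 0, counts too few to rank the sets.

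Fgfr3 marks the Deiters' and pillar cells beside the outer HCs, and cHC-like values are therefore set here beside both sets of HC-like cells. Otof was at 66.9 CPM (55.1 to 80.5) over all cHC-like cells, against 207 CPM in Ocm-high and 1030 CPM in Ocm-low cells. The Ocm-high values pool ages: 17 and 6 of the 38 cells came from Coch P12 replicates 1 and 2, which lacked cHC-like cells. Their Otof levels were 99.6 and 87.3 CPM, against 22.2 to 98.5 CPM in the cHC-like libraries. In Coch + Tmx P26 replicates 1 and 2 Otof was at 375 and 762 CPM in Ocm-high cells. In their cHC-like cells it was at 22.2 and 34.1 CPM. The values were 640 and 68.9 CPM in Coch + Tmx P33 replicate 1, and replicate 2 had 1 Ocm-high cell, without Otof. These Ocm-high values rest on few cells. All 12 UMIs behind 640 CPM were in 1 of 3 cells, and 7 of the 8 behind 375 CPM were in 1 of 5. Pooled over libraries, Slc17a8 was at 2.39 CPM (0.651 to 6.12) in cHC-like cells, against 21.8 CPM in Ocm-high and 888 CPM in Ocm-low cells. Cabp2, at 49.0 CPM (39.0 to 60.8), and Cacna1d, at 32.9 CPM (24.8 to 42.8), were below the Ocm-high cells, and Cabp2 was below the Ocm-low cells as well. The interval of Cacna1d in cHC-like cells overlapped that of the Ocm-low cells.

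**Figure D3:**
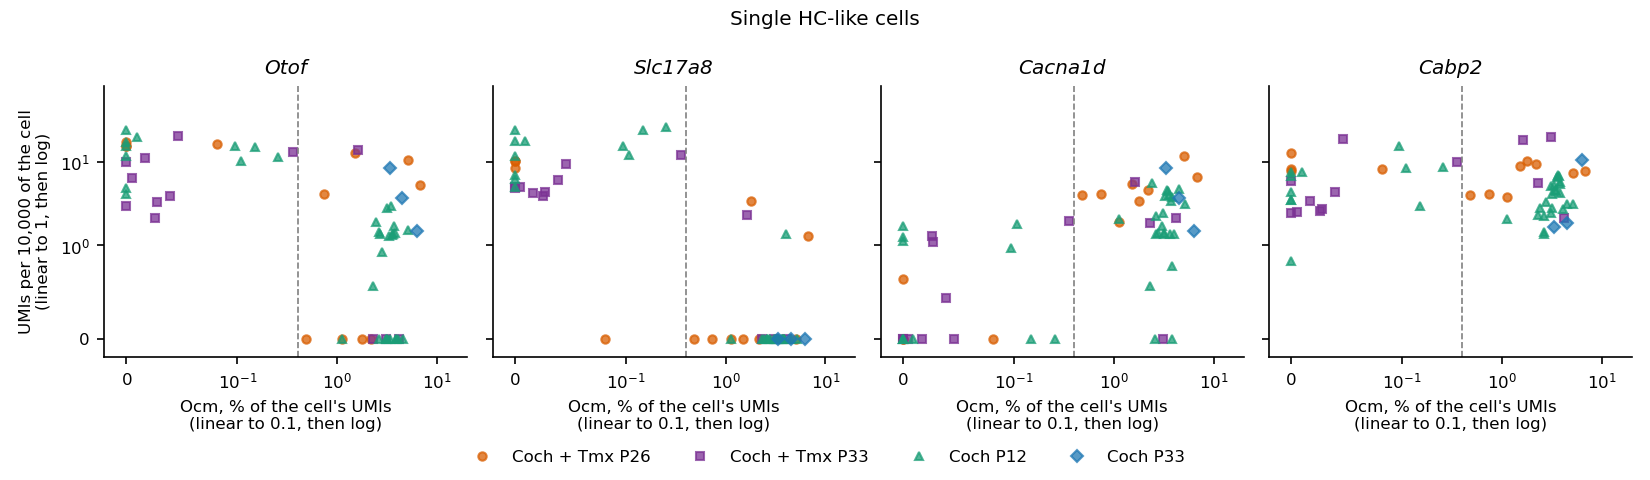
Each point is 1 of the 62 HC-like cells, with the share of its UMIs from Ocm (horizontal axis, linear to 0.1% and log above) against the UMIs of Otof, Slc17a8, Cacna1d or Cabp2 per 10000 UMIs of the cell (vertical axis, linear to 1 and log above), colored by group; the dashed line is the threshold of 0.4%. Slc17a8 is at 0 in most cells right of the line and above 0 in all but 1 cell left of it, while Cabp2 is above 0 in every cell.

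The makeup of the HC-like cells by Ocm differed between libraries, also within a group. For Coch + Tmx P33 against Coch P12, the only group comparison of HC-like cells with 2 libraries on each side, 0 of 4 genes tested in HC-like cells passed edgeR's quasi-likelihood test or DESeq2, and 0 had an unadjusted p under 0.05 in either (of 2601 genes edgeR called 0.846%, 0.5% higher and 0.346% lower). The log2 fold change was 0.68 for Otof (SE 0.69), 0.41 for Slc17a8 (SE 1.04), -0.88 for Cacna1d (SE 0.46) and 0.37 for Cabp2 (SE 0.37). The groups overlapped: Slc17a8 was at 356 and 586 CPM in Coch + Tmx P33 and at 644 and 0 CPM in Coch P12. All 6 HC-like cells of Coch P12 replicate 2 were Ocm-high, against 17 of 28 in replicate 1, and 3 of 6 and 1 of 7 in Coch + Tmx P33. Without Coch P12 replicate 1, 2 of 4 genes were called higher by edgeR's test, Slc17a8 (adjusted p = 3.8e-09, against 0 UMIs) and Otof (log2 fold change 2.77, adjusted p = 1.54e-05). Coch P12 was then 1 library, assumed to vary like the other groups. Without replicate 2 the log2 fold changes of Slc17a8 and Otof were -0.47 and -0.09. Age and tamoxifen cannot be told apart in this comparison. In SC-like cells 0 of the 8 genes had enough counts to be tested (of 5965 genes 6.2% were called, 3.27% higher and 2.93% lower).

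Across groups, the difference of HC-like from SC-like cells was not found to change. A term for Coch + Tmx P33 against Coch P12 in edgeR's quasi-likelihood test gave -1.88 for Otof (SE 1.41, adjusted p = 0.575), 3.15 for Cacna1d (SE 1.95, adjusted p = 0.479) and 0.58 for Cabp2 (SE 1.2, adjusted p = 0.868) on the log2 scale. These errors leave room for differences of several-fold. Among cHC-like cells, Otof was at 22.2 and 34.1 CPM in Coch + Tmx P26 replicates 1 and 2 and at 68.9 and 98.5 CPM in Coch + Tmx P33, Cacna1d at 13.9 and 11.4 against 47.9 and 30.5 CPM, and Cabp2 at 22.2 and 45.5 against 39.0 and 78.8 CPM. The library values of the ages did not overlap for Otof and Cacna1d and overlapped for Cabp2. Coch + Tmx P26 replicate 2 had 6 cHC-like cells, with 3 Otof UMIs (interval 7.03 to 99.7 CPM) and 1 Cacna1d UMI (0.288 to 63.3 CPM). Both intervals reached the Coch + Tmx P33 values, so that library does not separate the ages. The difference between the ages was not tested.

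cHC-like cells were further ordered by the share of their UMIs in the HC and cHC markers, none of them a synapse gene of the 8, and cut in 3 equal parts within each of the 3 libraries with at least 15 such cells. Pou4f3, a transcription factor that is itself one of these markers, was at 165, 737 and 962 CPM from the lowest to the highest part. Otof was at 34.9 CPM (21.0 to 54.5), 104 CPM (78.5 to 136) and 68.6 CPM (48.0 to 95). Cacna1d was at 18.4 CPM (8.82 to 33.8), 67.7 CPM (47.2 to 94.2) and 17.1 CPM (7.84 to 32.5), and Cabp2 at 29.4 CPM (16.8 to 47.8), 79.3 CPM (56.9 to 108) and 40.0 CPM (24.8 to 61.2). The middle part was thus the highest for these 3 genes, and for Cacna1d it was the highest in each of the 3 libraries. For Cabp2 it was the highest in both Coch + Tmx P33 libraries, while in Coch + Tmx P26 replicate 1 the counts were 2, 3 and 3 UMIs. For Otof this held in both Coch + Tmx P33 libraries, whereas in Coch + Tmx P26 replicate 1 all 8 UMIs were in the highest part. Rims2 was at 12.9, 15.5 and 22.9 CPM and Cacnb2 at 20.2, 27.1 and 34.3 CPM, with intervals that overlapped between all parts. Slc17a8 stayed at 3, 0 and 1 UMI.

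**Figure D4:**
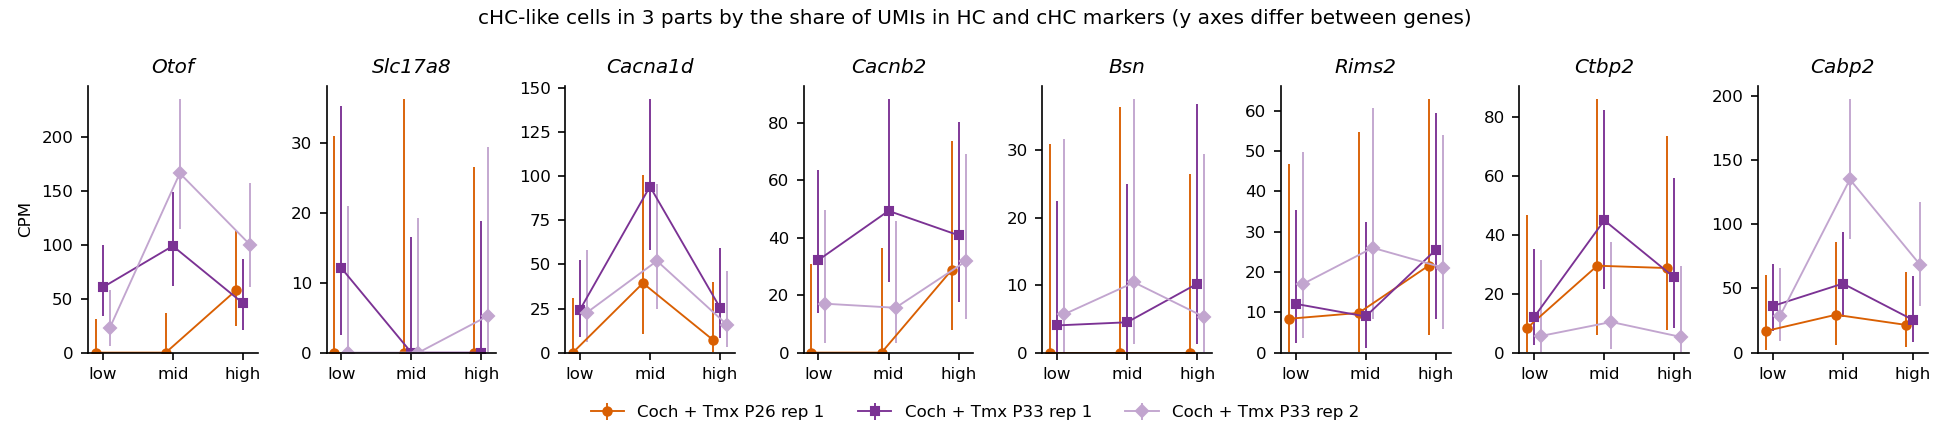
Level of each gene in CPM (vertical axis, scaled per gene) in cHC-like cells of 3 libraries, cut in 3 equal parts from the lowest to the highest share of UMIs in HC and cHC markers (horizontal axis); bars are 95% exact Poisson intervals. Cacna1d is highest in the middle part in each library, and Slc17a8 is at or near 0 in every part.

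HC-like and neuron-like cells were compared in 4 libraries (Coch + Tmx P26 replicate 1, both of Coch + Tmx P33 and Coch P12 replicate 1). Otof had 255 UMIs in the HC-like and 1 in the neuron-like cells, Slc17a8 229 and 0, Cabp2 231 and 4, and Cacna1d 58 and 45. All 4 were higher in HC-like cells in 4 of 4 libraries and in edgeR's quasi-likelihood test (of 3609 genes 41.6% were called, 16.2% higher and 25.3% lower). The log2 fold changes by edgeR were 8.72 for Otof (SE 0.62, adjusted p = 4.77e-08), 7.36 for Cabp2 (SE 0.49, adjusted p = 3.65e-08) and 2.12 for Cacna1d (SE 0.42, adjusted p = 0.000637), and Slc17a8 (adjusted p = 3.87e-07) was at least 232-fold higher. All 4 genes tested passed the filter through the HC-like sums alone, which set their direction in advance. Bsn was the only one of the 8 with a pooled ratio below 1 whose interval left out 1 (0.212, interval 0.0421 to 0.662). In 2 of the 4 libraries Bsn had 0 UMIs in HC-like cells at a depth that could not have shown the neuron-like level. Cacnb2 (1.08, 0.570 to 1.95), Rims2 (1.43, 0.534 to 3.5) and Ctbp2 (1.69, 0.696 to 3.86) were not separable between the classes. In cHC-like cells the ratio to neuron-like cells was 0.152 for Bsn (0.0614 to 0.331), 0.904 for Cacna1d (0.597 to 1.38) and 1.93 for Rims2 (0.967 to 4.11).

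The rest of the synaptic machinery was read from 5 lists, of calcium channels with modulators, scaffolds, vesicle proteins, SNAREs with calcium sensors, and afferent glutamate receptors. These held 73 further genes. Between HC-like and neuron-like cells 33 had enough counts, of which 28 were lower in HC-like cells (25.3% of all genes tested) and 1 was higher. The lower ones included 11 of 13 SNAREs and calcium sensors, 9 of 10 vesicle proteins and 4 of 4 calcium channel and modulator genes. Syt2, the fast calcium sensor of neurons, had 0 UMIs in HC-like cells and was at least 94.9-fold lower. Slc17a7 and Slc17a6, which encode the neuronal glutamate transporters VGLUT1 and VGLUT2, were at least 90.8-fold and 21.1-fold lower. Cplx1, a complexin that clamps fusion, had 1 UMI against 2376, and Sv2c, Grin1, Cacna1a and Syt4 had none. Vamp2, a vesicle SNARE, was the 1 gene that was higher in HC-like cells (log2 fold change 1.32, SE 0.48, adjusted p = 0.0367 in edgeR's test). Of the 33 genes, 24 passed the filter through the neuron-like sums alone, which set their direction in advance, so these counts say little about the lists.

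cHC-like cells differed from SC-like cells in many of these genes. Of 21 tested, 10 were higher and 2 lower in edgeR's quasi-likelihood test (36.9% of all genes tested were called in either direction), with 4 of the 12 called by DESeq2. Of the 21 genes, 11 passed the filter through the cHC-like sums alone and 2 through the SC-like sums alone. The count of calls therefore says little about the lists. Rab3b, a vesicle GTPase, had 216 UMIs against 0 and was at least 21.0-fold higher. Snap25, the membrane SNARE of neurons, was at least 14.4-fold higher (148 UMIs against 0). Cacna1b, the pore of the N-type calcium channel of neurons, was at least 9.35-fold and Syn2, a synapsin that tethers vesicles, at least 6.04-fold higher, and Syt4 at least 3.5-fold. Syt7, a slow calcium sensor (300 UMIs against 2), and Cacnb3, a channel beta subunit (55 against 1), were also higher. Snap23, the SNAP25 homolog of non-neuronal cells, and Sypl were lower, with log2 fold changes of -2.67 (SE 0.71, adjusted p = 0.000844) and -2.36 (SE 0.33, adjusted p = 3.91e-11) by edgeR.

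Against HC-like cells, 3 of 13 further genes had higher and 1 a lower level in the cHC-like class (5.11% and 3.5% of all genes tested). For Syt7 the log2 fold change by edgeR was 4.58 (SE 0.67, adjusted p = 0.00781), with 361 UMIs in cHC-like and 2 in HC-like cells. Cacna1b (119 UMIs against 0) was at least 4.78-fold and Syn2 (94 against 0) at least 3.78-fold higher. Syt7, Cacna1b and Syn2 passed the filter through the cHC-like sums alone, so their calls add nothing to these counts. Rims3, a small RIM protein, was lower (log2 fold change -3.70, SE 0.71, adjusted p = 0.0178 by edgeR), at 5.05 against 68.0 CPM. Rims3 passed the filter through the HC-like sums alone, so its call adds nothing to these levels. Leaving out a library gave 0 to 8 calls, with 0 without Coch + Tmx P33 replicate 1 and 1 without replicate 2. Between HC-like and SC-like cells 5 further genes were tested, and 1, Sypl, was lower (log2 fold change -1.34, SE 0.33, adjusted p = 0.026 by edgeR). Of all genes tested there 25.5% were called, 9.86% lower. Sypl passed the filter through the SC-like sums alone, so its call says little. That call was lost without Coch + Tmx P33 replicate 1, Coch + Tmx P33 replicate 2 or Coch P12 replicate 1.

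The genes whose levels ran most like the synapse genes were sought over 69 library-by-class sums of 12 classes, among 9567 genes outside the synapse lists. The correlations describe these sums, which share libraries and classes. Otof and Cabp2 had the same 3 nearest genes, Kncn (Pearson r of log2(CPM + 1) 0.93 with both), Kcna10 (0.89 and 0.95) and Tomt (0.89 and 0.93). Slc17a8 ran most like Kncn (0.72), Kcna10 (0.68) and Ocm (0.68), although among HC-like cells it was low where Ocm was high, and Cacna1d most like Homer2 (0.83), Pgm2l1 (0.78) and Calb1 (0.78). For Cacnb2 the nearest were Atp2b2 (0.93), Irx2 (0.85) and C77080 (0.85), for Bsn Sptbn4 (0.85), Esrrg (0.84) and Slc6a17 (0.84), and for Rims2 1110017D15Rik (0.86), Srrm4 (0.84) and Kcnh7 (0.83). Ctbp2 had no close match, with Whsc1l1 (0.59), Brap (0.59) and Man1a2 (0.57) nearest.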

How the data were processed

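Dissociated cells of 8 cochlear preparations were made into 10x Chromium 3′ libraries. Per the labels and the methods, the authors aligned reads to mm10 with Cell Ranger (version not given in the sources used here) and deposited UMI counts per gene and barcode, not normalized. Of 8061 barcodes, 1954 with under 500 genes and 84 with at least 25% mitochondrial UMIs were removed, and 41 likely doublets (0.681% of the cells scored) were taken out by Scrublet score, which left 5982 cells and 54365244 UMIs (3972800 to 13423524 per library). At most 3 barcodes were shared by 2 libraries. Cells were clustered with scanpy 1.11.5 (2000 variable genes, 30 components, Leiden resolution 1.0) without the 81 synapse genes and Atoh1, and clusters were named by markers.

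UMIs were summed per library and class where at least 5 cells were present and compared with edgeR 4.0.16 (TMM, filterByExpr, quasi-likelihood test, library as a term in class comparisons, Benjamini-Hochberg adjustment over all genes tested, threshold 0.05, R 4.3.3). DESeq2 1.42.0, other size factors, filters, cell minimums and clusterings, and leaving out each library, were alternatives. The class tests recovered planted changes in simulated data. There only well-counted genes were changed, all genes shared the same spread, and libraries differed in depth alone. The real sums differ from that setting, so how well the tests do on them was not shown. The 8 genes and all lists were chosen with earlier results of these data known. All 8 were named in each comparison, and of the 73 further synapse genes at most 8 per direction past the threshold. A gene that this rule names is not reported here. For each of the 8, the 3 genes with the highest correlation among those with at least 200 UMIs were named. The replicate numbers of Coch + Tmx P33 and Coch P12 name libraries only. The mm10 coordinates are those of RefSeq for GRCm38.p6.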

Additional observations from a re-analysis of the deposited data

How the results depend on the processing

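The limits were few cells (62 HC-like cells in all), few libraries (2 to 4 per class comparison) and few counts of Bsn, Rims2 and Ctbp2, so most of the 8 genes were under the count filter. Over the alternatives run, 80 of 99 counts of calls stayed within 1.5 times. Without the low count filter 5 of the 8 genes were called in HC-like against SC-like cells and 5 in cHC-like against SC-like cells, since all 8 were then tested, and 8 further synapse genes in the former. In cHC-like against SC-like cells DESeq2 called 0 of the 8 and 4 further genes. Cells under 10% mitochondrial UMIs gave 0 and 4, and a minimum of 3 cells, chosen after seeing the data, gave 0 and 6, in both cases because none of the 8 passed the filter. That minimum also gave 2 further genes in HC-like against SC-like and 1 in cHC-like against HC-like cells, and the cause was not tested. Leaving out each library gave 0 to 2 further genes in HC-like against SC-like cells. In cHC-like against HC-like cells it gave 1 to 3 of the 8 and 0 to 8 further genes, the lowest without Coch + Tmx P33 replicate 1. For Coch + Tmx P33 against Coch P12 in HC-like cells it gave 0 to 2 of the 8, with log2 fold changes of -0.09 to 2.77 for Otof and -0.47 to 8.05 for Slc17a8 (the highest is a fitted value against 0 UMIs in 1 library, and no bound), which was also at -0.04 without Coch + Tmx P33 replicate 2. The cause was not tested, and the makeup of these cells by Ocm stands beside the result. Cabp2 was 10.6 CPM higher in the highest than in the lowest of 3 parts of cHC-like cells, and with 2 parts the difference was -11.9 CPM.

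Leaving out the replicate block of library gave 3, 3, 3 and 4 calls among the 8 and 1, 12, 4 and 29 among the further genes in the 4 class comparisons, the counts reported. A block on replicate number gave 0 calls among the 8 in both group comparisons, and 193 in place of 22 genes in all in HC-like cells. The deviations of same-numbered libraries had r = -0.03 over 3910 genes, so the numbers are not a pairing. A minimum of 10 cells and the stricter mitochondrial limit left too few libraries for comparisons with HC-like cells, and no library could be left out of cHC-like against SC-like cells.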

Other observations

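Ctbp2 had UMIs in 30 of 31 clusters, and the levels of some other synapse genes outside the classes compared are given as values. An unnamed cluster of 215 cells led by Fam25c, Otol1 and Gsn held 21 Rims2 UMIs (11.6 CPM), 14 Otof UMIs (7.74 CPM) and 10 Cabp2 UMIs (5.53 CPM). An unnamed cluster of 143 cells led by Opcml, Sned1 and C1ql2 held 7 Slc17a8 UMIs (6.36 CPM, interval 2.56 to 13.1), the highest level of that gene outside the HC-like cells. Ctbp2 was highest in 40 endothelial-like cells (16 UMIs, 60.9 CPM, 34.8 to 98.8). In 17 cells led by Olig1, Olig2 and Cspg5, Rims2 had 3 UMIs (17.4 CPM, 3.58 to 50.8) and Bsn 2 (11.6 CPM, 1.4 to 41.8). In SC-like cells Vamp2, a vesicle SNARE, was the 1 of 14 further synapse genes tested that was higher in Coch + Tmx P33 than in Coch P12 (log2 fold change 1.5, SE 0.46, adjusted p = 0.0439 by edgeR). Of all 5965 genes tested 6.2% were called, 3.27% higher and 2.93% lower, so 1 call of 14 says little about these genes. Age and tamoxifen differ together between these groups.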
